A study of Brassica rapa with 38 samples.

Results

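The 200 gene models described here had more transcript in diploid than in monoploid leaves of *Brassica rapa*, and about as much in autotetraploid as in diploid leaves. They were chosen from their expression values in all 8 RNA-seq libraries. A gene model could be chosen if it lay on chromosome A01, A03, A05, A06, A07, A08 or A10, reached at least 1 TPM in each library, averaged at most 500 TPM, and had a log2 ratio of the autotetraploid mean to the diploid mean between -0.20 and 0.20. TPM is a transcript level scaled for transcript length and given as a share of all transcripts in the library. Of 46479 gene models, 9522 met these bounds, after 1 block of A06 with 8 such gene models was left out. They were ranked by the lowest diploid or autotetraploid library over the highest monoploid library, and the first 200 were kept. The difference between monoploid and the other leaves is therefore what chose these genes, and it is given for them as a description, not as a tested result.

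The plants were Chinese cabbage of the inbred line 85-1 at 3 ploidy levels. The autotetraploid came from a further colchicine treatment of the diploid, the diploid from colchicine treatment of the monoploid, and the monoploid from isolated microspore culture. All were propagated by tissue culture and transplanted at the same time into plastic greenhouses of the same station. Whether the ploidy levels shared a greenhouse is not stated. The second or the third innermost young leaf was taken 60 days after sowing, at the transition to heading. RNA was sequenced from 3 autotetraploid libraries (T1, T2 and T3), 2 diploid libraries (D1 and D2) and 3 monoploid libraries (M1, M2 and M3). As each ploidy level was derived from the one below it, the number of genome copies and the history of colchicine treatment and regeneration cannot be told apart. The number of plants behind each RNA library is not given in the sources used here, so any p-value measures only the spread between these libraries.

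Genome doubling gives each gene more copies in a cell, but it adds copies of every gene alike. A gene whose transcripts grow in step with all others keeps its share of the transcriptome, and its TPM does not move. A higher TPM therefore means that a transcript takes a larger share of the RNA of the leaf, not that a cell holds more of it. In leaf tissue measured in bulk, a smaller part of a cell type and less RNA per cell cannot be told apart.

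The gene identifiers are those of the deposited tables. None of them (0) matched the RefSeq annotation at hand, so no gene name, function or marker list can be attached to them, and the leaf identity of the samples could not be checked against markers. Coordinates are those in the tables, whose genome assembly is not given in the sources used here.

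Sequencing depth was 6.48 to 8.06 Gb of aligned bases in autotetraploid, 5.86 to 7.87 Gb in diploid and 6.15 to 6.82 Gb in monoploid libraries. Across the 9522 genes within the bounds, the median log2 ratio to the monoploid was 0.26 in the autotetraploid and 0.32 in the diploid. This common shift was removed by rescaling each library by its median ratio to the gene-wise mean. As deposited, 3879 of the 9522 genes (40.7%) had every autotetraploid and diploid library above every monoploid library, and 801 had the reverse. After rescaling these counts were 2129 of 10349 genes (20.6%) and 1927, so the excess of higher over lower genes within the bounds was small after rescaling. At the value of rank 200, 200 genes were higher and 93 lower as deposited, against 86 higher and 179 lower after rescaling.

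The 200 genes stood well above the common shift. Their median fold over the monoploid was 2.90 in the autotetraploid (1.95 to 18.4) and 2.89 in the diploid (2.01 to 18.5). On the log2 scale these medians were both 1.53, and after rescaling they were 1.32 and 1.25. The log2 rescaling factors ran from -0.24 to 0.15 and the lowest ranking value was 0.86 on that scale, so rescaling could not bring any of the 200 genes into overlap with the monoploid. It lowered the smallest ranking value to 1.43-fold, and 161 genes kept an autotetraploid to diploid ratio within 0.20. Most differences were of moderate size, since 88 genes in each of the autotetraploid and the diploid reached 3-fold, 40 in the autotetraploid and 30 in the diploid reached 4-fold, and 6 and 5 reached 8-fold.

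The genes together filled a small part of the transcriptome. Their summed level was 7421, 7824 and 6917 TPM in the autotetraploid libraries, 7511 and 6881 TPM in the diploid libraries, and 2369, 2396 and 2262 TPM in the monoploid libraries. This was 0.692% to 0.782% of all transcripts in autotetraploid, 0.688% to 0.751% in diploid and 0.226% to 0.240% in monoploid leaves. No autotetraploid or diploid library came near a monoploid library, whereas autotetraploid and diploid libraries were interleaved. The rule chose for the first and bounded the second, so neither part of this order is a result. The same order appeared gene by gene in the map of all 200 genes by library.

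**Figure D1:**
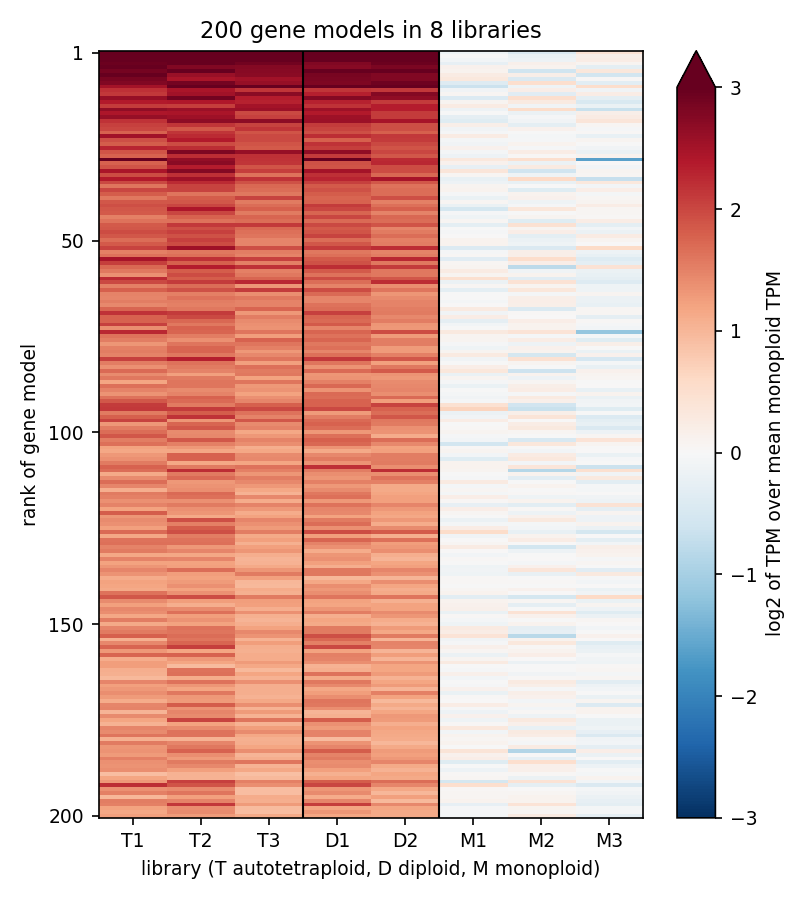
Each row is one of the 200 gene models, ordered by rank, and each column a library, with autotetraploid (T), diploid (D) and monoploid (M) libraries from left to right. Colour gives log2 of TPM over the gene's mean monoploid TPM, with values above 3 drawn in the darkest red, and the 5 left columns are red in every row while the monoploid columns are mostly near 0.

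The top-ranked gene stood apart from the rest. BRA06G0037804 (A06, 49394806 to 49395942, plus strand) had 56.8, 59.2 and 53.2 TPM in autotetraploid, 59.6 and 53.6 TPM in diploid, and 2.81, 2.25 and 4.13 TPM in monoploid leaves. Its lowest autotetraploid or diploid library was 12.9-fold above its highest monoploid library. BRA06G0041614 (A06, 4799288 to 4802888, minus strand) followed at 8.17-fold and a far higher level, with 158, 169.9 and 167 TPM in autotetraploid, 180.4 and 175 TPM in diploid, and 17.1, 14.9 and 19.4 TPM in monoploid leaves. These were the only 2 genes past 8-fold by this measure, and 9 genes passed 4-fold.

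The next genes ran at lower levels than BRA06G0041614. BRA03G0026453 (A03, 11223287 to 11223718, plus strand) had 31.3, 22.2 and 23.0 TPM in autotetraploid, 23.8 and 20.7 TPM in diploid, and 2.30, 2.18 and 2.85 TPM in monoploid leaves. BRA05G0042808 (A05, 2552383 to 2553236, plus strand) had 51.0, 59.8 and 49.5 TPM in autotetraploid, 45.7 and 51.0 TPM in diploid, and 5.56, 7.31 and 6.99 TPM in monoploid leaves. In both genes the gap between the monoploid and the other libraries was larger than the spread within any group. BRA08G008424 (A08, 28157040 to 28160447, minus strand) had 69.4, 54.4 and 53.0 TPM in autotetraploid, 51.9 and 55.8 TPM in diploid, and 8.68, 8.51 and 6.46 TPM in monoploid leaves. BRA03G0027459 (A03, 16125552 to 16128301, minus strand) had 81.1, 55.2 and 59.2 TPM in autotetraploid, 65.5 and 62.2 TPM in diploid, and 10.8, 10.4 and 6.18 TPM in monoploid leaves. Both showed T1 above the other 4 autotetraploid and diploid libraries.

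A pair of the 10 highest-ranked genes came close to the floor of 1 TPM in the monoploid. BRA05G0044848 (A05, 34385087 to 34386085, minus strand) had 11.3, 19.0 and 10.3 TPM in autotetraploid, 15.7 and 14.9 TPM in diploid, and 1.66, 1.02 and 1.97 TPM in monoploid leaves. BRA01G0018303 (A01, 5700719 to 5705346, minus strand) had 9.75, 7.41 and 7.76 TPM in autotetraploid, 9.52 and 9.23 TPM in diploid, and 1.67, 1.01 and 1.38 TPM in monoploid leaves. Genes that fell below 1 TPM in any monoploid library could not be chosen, so a gene silent in the monoploid and expressed in the other leaves is not among the 200.

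BRA07G005965 (A07, 26258553 to 26259663, minus strand) had 37.1, 39.5 and 33.1 TPM in autotetraploid, 37.4 and 40.3 TPM in diploid, and 4.13, 7.66 and 4.34 TPM in monoploid leaves. The last of the 10, BRA03G0025463 (A03, 5951607 to 5951828, plus strand), had 11.9, 29.3 and 31.7 TPM in autotetraploid, 24.2 and 28.4 TPM in diploid, and 1.36, 1.92 and 3.06 TPM in monoploid leaves. T1 lay well under the other autotetraploid and diploid libraries in this gene, so its fold of group means, 11.5 for the autotetraploid and 12.4 for the diploid, was far above its ranking value of 3.88.

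**Figure D2:**
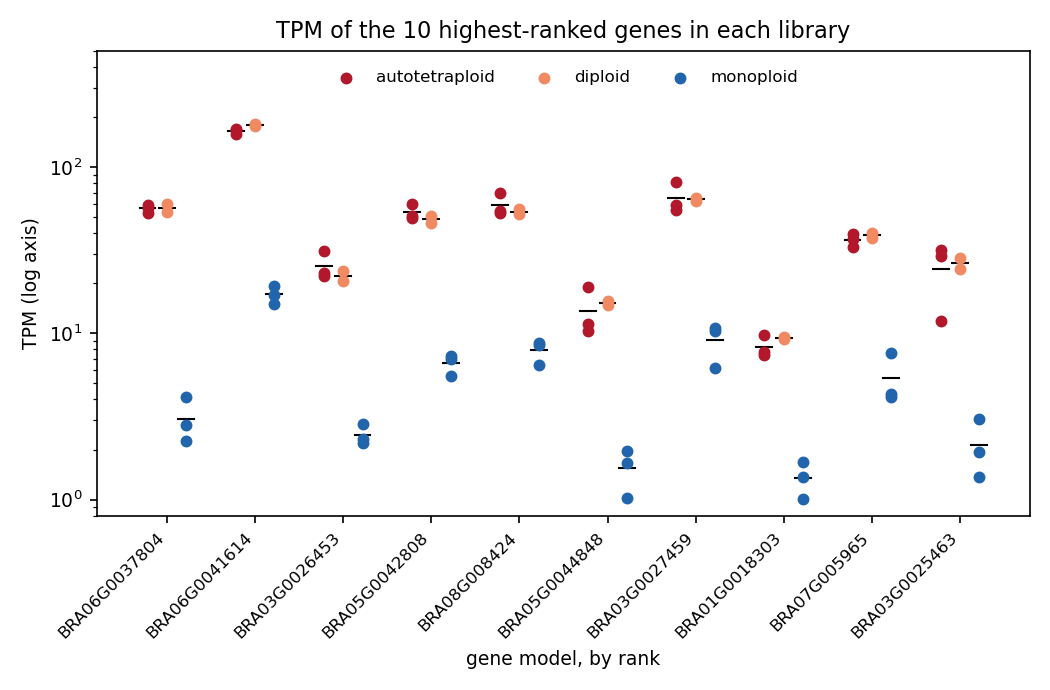
TPM on a log axis for the 10 highest-ranked gene models, with a point for each autotetraploid, diploid and monoploid library and a bar at each group mean. Every monoploid point lies below every autotetraploid and diploid point of its gene, and the autotetraploid and diploid points fall together, with T1 of BRA03G0025463 at 11.9 TPM as the widest departure.

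The genes were of ordinary length and ordinary mean level over all libraries, but low in the monoploid, which follows from the choice. Their median of mean TPM was 20.4 in the autotetraploid, 19.0 in the diploid and 6.25 in the monoploid. Over the 9522 genes within the bounds it was 16.5, 17.1 and 14.2. Their mean TPM over the 8 libraries had a median of 14.7, against 15.9 for the 9522 genes within the bounds, and their median span was 1806 bp (204 to 26371), against 1944 bp. The share of genes chosen was 1.59% at a mean of 1 to 5 TPM (19 of 1195), 2.39% at 5 to 20 TPM (103 of 4301), 2.07% at 20 to 100 TPM (68 of 3291) and 1.36% at 100 to 500 TPM (10 of 735). The median fold of the autotetraploid over the monoploid stayed between 2.87 and 3.01 in these 4 classes, and that of the diploid between 2.68 and 3.00.

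Among the genes with the highest mean level, BRA10G0013495 (A10, 19747835 to 19748143, minus strand) had 723, 532 and 484 TPM in autotetraploid, 624 and 428 TPM in diploid, and 192, 196 and 204 TPM in monoploid leaves. BRA05G0043068 (A05, 3971355 to 3976638, plus strand) had 319, 430.4 and 423 TPM in autotetraploid, 398 and 336 TPM in diploid, and 83.1, 95.1 and 101 TPM in monoploid leaves. Its lowest autotetraploid or diploid library was 3.17-fold above its highest monoploid library. BRA08G009027 (A08, 25229835 to 25236254, plus strand) had 197, 237 and 192 TPM in autotetraploid, 191 and 187 TPM in diploid, and 40.1, 49.7 and 40.2 TPM in monoploid leaves. The short BRA03G0026585 (A03, 11873045 to 11873248, minus strand) had 158, 171 and 157 TPM in autotetraploid, 175 and 189 TPM in diploid, and 85.1, 85.1 and 79.5 TPM in monoploid leaves. It was the only one of the 200 genes whose autotetraploid mean was under 2-fold the monoploid mean, at 1.95. The fifth, BRA06G0041517 (A06, 5269764 to 5270934, plus strand), had 178, 156 and 148 TPM in autotetraploid, 164 and 155 TPM in diploid, and 74.7, 43.0 and 70.9 TPM in monoploid leaves.

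At the low end, 33 of the 200 genes had a library under 2 TPM. BRA06G0041218 (A06, 6999355 to 6999810, plus strand) had 2.54, 2.81 and 2.62 TPM in autotetraploid, 3.54 and 2.31 TPM in diploid, and 1.17, 1.10 and 1.23 TPM in monoploid leaves. BRA07G007302 (A07, 33328722 to 33330161, plus strand) ranged over 2.94 to 3.85 TPM in autotetraploid, 3.00 to 3.51 TPM in diploid and 1.29 to 1.57 TPM in monoploid leaves. BRA03G0030409 (A03, 32337931 to 32338253, plus strand) ranged over 3.19 to 4.31 TPM in autotetraploid, 2.94 to 4.07 TPM in diploid and 1.26 to 1.61 TPM in monoploid leaves. No read counts per gene are given, so the counting error of such low values is unknown.

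The choice ended without a gap in the values. At rank 200, BRA01G0018135 (A01, 6582952 to 6584486) had 65.1, 67 and 60.5 TPM in autotetraploid, 63.3 and 60.7 TPM in diploid, and 26.8, 33.2 and 23.1 TPM in monoploid leaves. Just below it, BRA10G0012462 (A10, 25042206 to 25045034) had 11.1, 8.75 and 9.17 TPM in autotetraploid, 9.23 and 8.80 TPM in diploid, and 4.19, 4.81 and 3.39 TPM in monoploid leaves. The ranking value was 1.82-fold for the last 3 genes chosen (BRA01G0018176, BRA10G0011855 and BRA01G0018135), 1.82-fold for BRA10G0012462, and 1.81-fold for the next genes left out, BRA05G0045162 and BRA05G0042720. The bound on the autotetraploid to diploid ratio left out a further 70 genes of that ranking value with a log2 ratio above 0.20 and 33 with one below -0.20, out of 303 in all.

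The bound itself held the autotetraploid and diploid means close, so their closeness is not a result. The log2 ratio of their means had a median of 0.04, and it was within 0.10 in 109 genes. The autotetraploid and diploid libraries overlapped in 187 of the 200 genes, against 88.1% of the 9522 genes, with all autotetraploid libraries above both diploid ones in 6 and below both in 7. The autotetraploid mean was the higher one in 120 of the 200 genes (32.2% of the 9522). This direction is not free of the rule, which ranked by the lowest of 3 autotetraploid and 2 diploid libraries. In the 200 genes the median log2 ratio of highest to lowest library was 0.38 in the autotetraploid and 0.20 in the diploid. The part of the rule in this direction was not tested. After rescaling, the log2 ratio had a median of 0.10 in the 200 genes, against 0.01 in the 9522. It then ran from -0.14 to 0.26 in the 200 genes, so those that left the bound all had the higher autotetraploid mean.

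The genes at the edges of that bound show the largest differences between group means that the rule allowed. BRA01G0015583 (A01, 37473341 to 37474752), with a log2 ratio of 0.20, had 19.9, 24.9 and 15.5 TPM in autotetraploid, 20.8 and 14.2 TPM in diploid, and 4.72, 2.42 and 3.85 TPM in monoploid leaves. BRA01G0017242 (A01, 11632411 to 11637086), also at 0.20, had 18.7, 17.7 and 13.5 TPM in autotetraploid, 16.3 and 12.7 TPM in diploid, and 6.85, 6.22 and 6.0 TPM in monoploid leaves. In both, as in BRA03G0026453 at 0.20, the autotetraploid and diploid libraries overlapped. BRA07G006688 (A07, 30056720 to 30058436), at -0.20, had 31.3, 37.4 and 36.8 TPM in autotetraploid, 44.3 and 36.4 TPM in diploid, and 10.0, 11.6 and 11.3 TPM in monoploid leaves. BRA08G007871 (A08, 30430485 to 30432439), at -0.20, had 7.35, 8.07 and 7.74 TPM in autotetraploid, 9.40 and 8.32 TPM in diploid, and 1.94, 2.27 and 2.06 TPM in monoploid leaves. It was one of the 7 genes whose autotetraploid libraries all lay below both diploid ones.

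**Figure D3:**
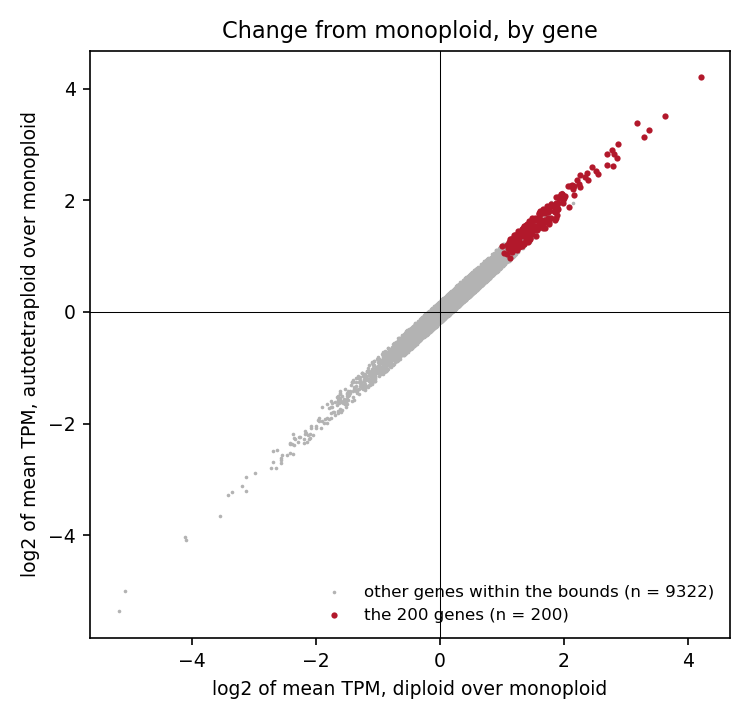
Log2 ratio of mean TPM in the autotetraploid over the monoploid (vertical) against the diploid over the monoploid (horizontal) for the 9522 gene models within the bounds, with the 200 chosen ones in red. The narrow diagonal band follows from the bound on the autotetraploid to diploid ratio and from the monoploid mean on both axes, and the red points take its upper end up to BRA06G0037804 at 4.20 and 4.21.

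Spread among the monoploid libraries varied widely between genes. BRA05G0046041 (A05, 40879597 to 40880012) had 93.1, 54.8 and 39.0 TPM in autotetraploid, 71.5 and 41.3 TPM in diploid, and 11.0, 12.5 and 2.81 TPM in monoploid leaves. It had the largest monoploid spread of the 200 and, after BRA01G0016372, the largest diploid spread. BRA06G0041513 (A06, 5285617 to 5287631) had 5.24, 5.64 and 1.90 TPM in monoploid leaves, below the 12.9 to 20.5 TPM of autotetraploid and 14.4 to 16.4 TPM of diploid leaves. BRA03G0030458 (A03, 32624757 to 32626815) had 6.88, 2.76 and 3.39 TPM in monoploid leaves, below the 17.2 to 18.9 TPM of autotetraploid and 14.8 to 17.1 TPM of diploid leaves. M3 was the low library in the first 2 genes, and M1 the high one in BRA03G0030458.

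Other genes barely varied in the monoploid. BRA03G0025644 (A03, 6878716 to 6879847) had 67.5, 76.3 and 58.0 TPM in autotetraploid, 78.2 and 67.5 TPM in diploid, and 29.7, 29.6 and 29.8 TPM in monoploid leaves. BRA06G0038540 (A06, 44980559 to 44981679) had 58.3, 46.8 and 54.7 TPM in autotetraploid, 50.5 and 55.3 TPM in diploid, and 24.0, 24.3 and 24.8 TPM in monoploid leaves. BRA06G0037844 (A06, 49211683 to 49215253) had 16.4, 17.4 and 15.1 TPM in autotetraploid, 18.0 and 16.3 TPM in diploid, and 7.24, 7.02 and 6.98 TPM in monoploid leaves. In the diploid the widest gap was that of BRA01G0016372 (A01, 31709475 to 31709822), with 14.6 TPM in D1 and 8.40 TPM in D2, against 3.44, 4.06 and 2.05 TPM in monoploid leaves. D1 lay above and D2 below the 9.36 to 10.8 TPM of the autotetraploid, and its log2 ratio of autotetraploid to diploid, -0.20, was again at the edge of the bound.

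The order of libraries within a ploidy level was not part of the rule, and it was uneven across the 200 genes. T2 exceeded T3 in 167 of 200 genes (83.5%), against 55.1% of the 9522 genes, and T1 exceeded T3 in 144 (72.0%), against 48.3%. D1 exceeded D2 in 151 of 200 genes (75.5%), against 41.1%. The 93 genes that met the mirrored rule, with monoploid levels above the others, had the opposite order, since T2 exceeded T3 in 29 (31.2%), T1 exceeded T3 in 26 (28.0%) and D1 exceeded D2 in 9 (9.68%). In both sets T3 and D2 thus lay nearer to the monoploid than the other libraries of their ploidy level in most genes. After rescaling, T2 exceeded T3 in 164 of the 200 genes, T1 exceeded T3 in 129, and D1 exceeded D2 in 157. T3 had the smallest depth of the autotetraploid libraries (6.48 Gb, against 6.95 and 8.06 Gb), whereas D2 had the larger depth of the diploid libraries (7.87 Gb, against 5.86 Gb); the part of depth in this order was not tested. The deposited table of D2 also differs from the other 7 in row order and number format, and whether it was made in the same run of the pipeline is not stated.

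How the genes behave in a library that had no part in choosing them was read by applying the rule to 7 libraries and then looking at the eighth. The left-out autotetraploid library lay above every monoploid library in 200 of the 200 genes so chosen each time, for T1 (50.8% of all genes within the bounds), T2 (54.3%) and T3 (55.4%). The left-out diploid library did so in 200 of 200 for D1 (60.6%) and for D2 (63.2%). The left-out monoploid library lay below every autotetraploid and diploid library in 199 of 200 for M1 (62.4%), 193 for M2 (48.1%) and 199 for M3 (66.6%). M2 was the least uniform. The libraries that the left-out one was compared with had still been used in the choice, which set a gap between them. The ranking value of rank 200 in these choices was 0.79 to 1.05 on the log2 scale. High counts thus follow in part from the choice, and the shares over all genes within the bounds are not a matched comparison.

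The size of the difference was also read in the left-out library. Each fold was taken against libraries of the other groups that the choice had used, so a similar size follows in part from the choice. Its median fold, set beside the fold from the libraries of its group that were used, was 2.89 against 2.89 for T1, 3.16 against 2.84 for T2, 2.42 against 2.88 for T3, 2.77 against 2.69 for D1, 2.65 against 3.03 for D2, 2.83 against 3.02 for M1, 2.58 against 3.24 for M2, and 3.05 against 2.92 for M3. T3 and M2 gave the smallest differences. Between 127 and 171 of the 200 genes were among those chosen again when a library was left out, fewest without D1. With the libraries rescaled, 188 to 200 of 200 genes lay on the side of their group (33.2% to 39.0% of all genes within the bounds).

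**Figure D4:**
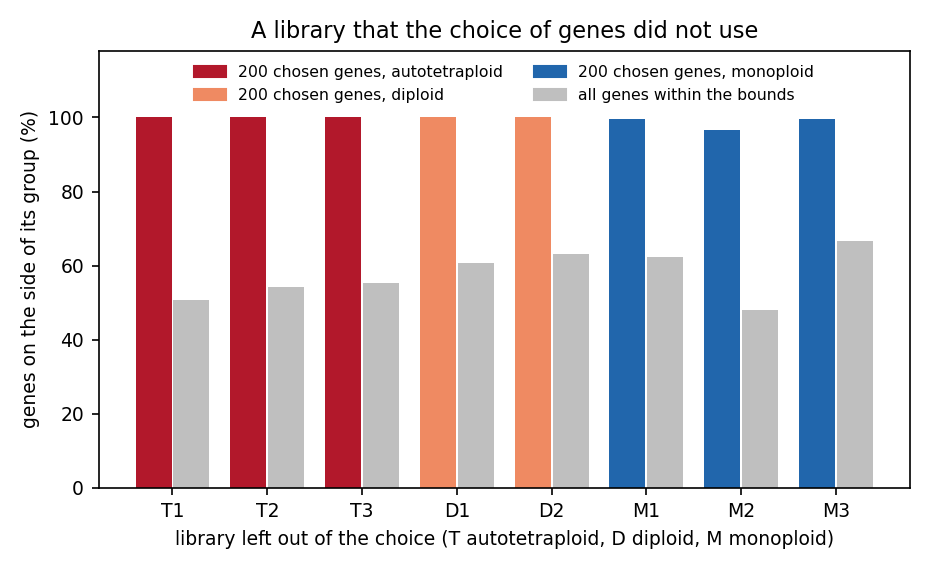
Percentage of genes in which a library that was left out of the choice lay on the side of its group, above every monoploid library for autotetraploid (T) and diploid (D) libraries and below every other library for monoploid (M) ones. Coloured bars give the 200 genes chosen from the other 7 libraries, 96.5% to 100%, and grey bars all genes within the bounds, 48.1% to 66.6%.

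A linear model was also fitted over all 25652 genes tested, in which a call needed an adjusted p of at most 0.05 by limma with Benjamini-Hochberg adjustment and a log2 difference of at least 1 on log2(TPM + 1). Its calls among the 200 genes follow from the choice, which used the same libraries and contrasts, and are given only as a description. By this fit 190 of the 200 genes were called higher in autotetraploid than in monoploid leaves (5.56% of all genes tested), and 187 higher in diploid than in monoploid leaves (4.87%). The rest missed the limit on the difference, which the added 1 TPM makes harder to reach for genes of low level. After rescaling, 148 (3.64% of all) and 132 (2.51%) were called. Between autotetraploid and diploid leaves the bound on the ratio left no room for a call of this size, and 0 of the 200 genes were called by limma (0.0273% of all, 7 genes) and 0 had an unadjusted p of at most 0.05.

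The genes were spread over all 7 chromosomes. A08 held 29 of its 1065 genes within the bounds (2.72%), A01 34 of 1359 (2.5%), A07 26 of 1277 (2.04%), A03 41 of 2015 (2.03%), A06 29 of 1461 (1.98%), A05 25 of 1263 (1.98%) and A10 16 of 1082 (1.48%). The 93 genes on the plus and 107 on the minus strand were near the even split of all genes within the bounds (49.5% plus). Of 39 windows of 5000000 bp with at least 50 genes within the bounds, all but 1 held some of the 200 genes. The highest share was 5.51% (7 of 127 genes, A03 from 30000001 to 35000000), and the empty window was A05 from 10000001 to 15000000 (0 of 74 genes).

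The other chromosomes were outside the rule. Each library's chromosome medians of the log2 ratio to the diploid mean were centred on their median over all chromosomes. So centred, autotetraploid libraries lay between -0.01 and 0.02 on the 7 chromosomes used. A02 stood at 0.31 in T1 and T3 but at -0.01 in T2. A04 was raised only in T2 (0.32), and A09 only in T1 (0.31). Genes on A02, A04 or A09 that met every other bound reached the ranking value of rank 200 in 58 of 4289 cases (1.35%), against 2.10% on the 7 chromosomes. BRA09G0031159 (A09, 1923736 to 1924600) had 63.7, 61.8 and 45.7 TPM in autotetraploid, 69.8 and 29.9 TPM in diploid, and 2.98, 1.16 and 1.60 TPM in monoploid leaves. BRA09G0037204 (A09, 69438441 to 69442427) had 43.1, 31.1 and 35.4 TPM in autotetraploid, 34.9 and 33.8 TPM in diploid, and 4.47, 4.46 and 4.44 TPM in monoploid leaves. BRA02G0023136 (A02, 4786682 to 4790228) had 108, 121 and 154 TPM in autotetraploid, 116 and 172 TPM in diploid, and 18.5, 13.4 and 18.0 TPM in monoploid leaves. The first of these would have ranked second among the 200.

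Most of the 200 genes had no other of the 200 starting within 100 kb. The median distance between the starts of consecutive ones was 544479 bp, and 28 of 193 consecutive pairs lay within 100 kb. These pairs formed 23 runs with 51 genes, of which 4 runs held 3 genes or more. No such counts were made for other genes within the bounds, so whether the 200 are clustered cannot be said. In 3 places a pair of the 200 genes had no gene model between them.

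The first such pair was divergent, on A08. BRA08G008424, described above, starts 923 bp from BRA08G008423 (28161371 to 28164200, plus strand), which had 53.7, 54.3 and 51.0 TPM in autotetraploid, 51.0 and 43.8 TPM in diploid, and 10.9, 12.4 and 7.46 TPM in monoploid leaves. M3 was the lowest library of both genes. Within 100 kb to the right followed BRA08G008404 (28222552 to 28223691), with 5.06, 5.44 and 3.92 TPM in autotetraploid, 5.10 and 4.07 TPM in diploid, and 1.52, 1.29 and 1.43 TPM in monoploid leaves, and BRA08G008399 (28243291 to 28246466), with 11.2, 12.5 and 9.18 TPM in autotetraploid, 10.5 and 8.76 TPM in diploid, and 3.04, 3.10 and 3.25 TPM in monoploid leaves. The 13 other expressed gene models between these 4 had a median log2 ratio of diploid to monoploid of 0.33, from -1.68 to 0.87, so the run was not a block of genes that moved alike.

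The second pair lay on A07 on the same strand, 68 bp apart. BRA07G005964 (26254286 to 26258484, minus strand) had 33.8, 40.8 and 28.5 TPM in autotetraploid, 37.1 and 34.8 TPM in diploid, and 4.17, 7.89 and 4.53 TPM in monoploid leaves. Its values followed those of BRA07G005965 in the monoploid, where M2 was the highest library of both. Whether reads that run on past the end of one were assigned to the other is not known from the tables. The run also held BRA07G005974 (26313676 to 26317824), with 24.1, 23.9 and 20.1 TPM in autotetraploid, 22.7 and 21.6 TPM in diploid, and 9.56, 9.95 and 8.27 TPM in monoploid leaves. Of the 2 other expressed gene models between them, named after their values were seen, BRA07G005967 had 4.98, 5.42 and 4.86 TPM in autotetraploid, 10.5 and 4.86 TPM in diploid, and 1.22, 1.72 and 1.5 TPM in monoploid leaves. BRA07G005968 lay on the other side, with 14.3, 15.8 and 13.6 TPM in autotetraploid, 16.4 and 15.9 TPM in diploid, and 18.3, 25.5 and 18.8 TPM in monoploid leaves.

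The third pair lay near the start of A05, 343 bp apart on the same strand. BRA05G0042297 (25385 to 31452, minus strand) had 21.0, 21.0 and 20.1 TPM in autotetraploid, 19.7 and 20.2 TPM in diploid, and 6.92, 8.29 and 6.37 TPM in monoploid leaves. BRA05G0042298 (31796 to 33493, minus strand) had 21.3, 22.4 and 21.5 TPM in autotetraploid, 22.2 and 21.0 TPM in diploid, and 7.28, 8.32 and 6.68 TPM in monoploid leaves. The levels of these genes were close to each other in every library. The run began with BRA05G0042295 (21150 to 23070, plus strand), with 43.7, 38.2 and 37.1 TPM in autotetraploid, 43.8 and 40.0 TPM in diploid, and 12.1, 13.4 and 11.9 TPM in monoploid leaves. The gene model between them, BRA05G0042296 (23416 to 24940, minus strand), named after its values were seen, had 34.1, 29.0 and 37.1 TPM in autotetraploid, 34.9 and 43.3 TPM in diploid, and 16.0, 19.6 and 15.9 TPM in monoploid leaves. Its log2 ratio of autotetraploid to diploid, -0.23, lay just outside the bound, so all 4 consecutive gene models in this stretch were higher in every autotetraploid and diploid library than in any monoploid library.

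The fourth run, on A08, held BRA08G009481 (22759649 to 22759909), with 66.5, 91.1 and 69.4 TPM in autotetraploid, 60.8 and 74.8 TPM in diploid, and 16.8, 17.2 and 18.6 TPM in monoploid leaves, together with BRA08G009476 and BRA08G009470 at lower levels. The 5 other expressed gene models of this run had a median log2 ratio of diploid to monoploid of 0.21. One of them, BRA08G009478, named after its values were seen, was lower in the other leaves, with 38, 33.7 and 75.8 TPM in autotetraploid, 35.6 and 56.3 TPM in diploid, and 119.9, 97.0 and 101 TPM in monoploid leaves.

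The nearest gene models on either side of the 200 genes were read as a measure the rule had not used. Of 399 distinct neighbours, 6 were themselves among the 200, and 205 of the rest had at least 1 TPM in every library. Their median log2 ratio to the monoploid was 0.24 in the autotetraploid and 0.34 in the diploid, against 0.19 and 0.29 over the 14995 expressed genes of the same chromosomes. A 2-fold higher diploid mean was found in 15 neighbours (7.32%), against 6.42% of those genes, and all autotetraploid and diploid libraries lay above all monoploid libraries in 72 (35.1%), against 33.3%. These 205 neighbours thus stood near the level of all expressed genes, and far below the 1.53 of the genes they flank. They leave out the 6 neighbours among the 200 and any below 1 TPM in a library, whereas the 14995 genes include the 200. The 6 of 399 stand beside 200 of 31495 gene models on these chromosomes outside the A06 block.

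**Figure D5:**
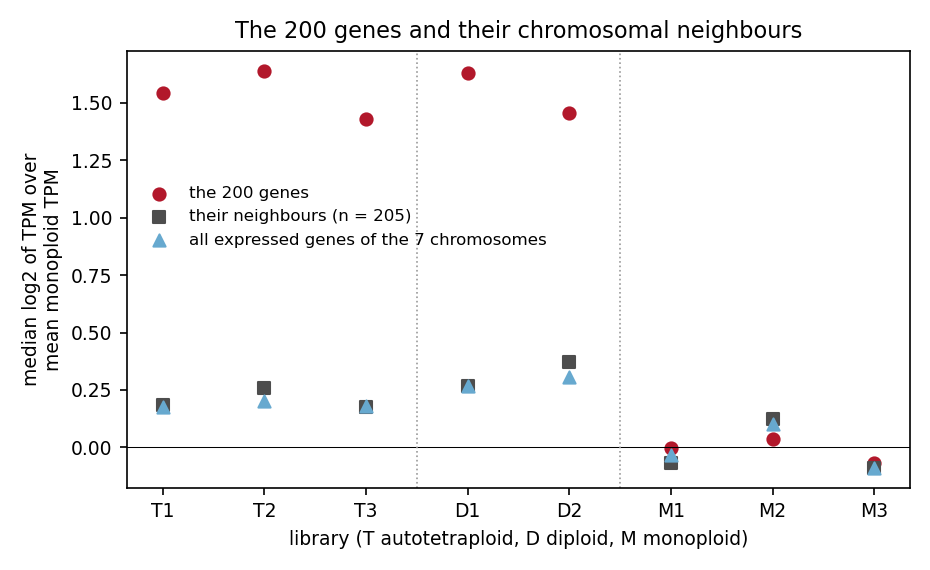
Median log2 of TPM over the gene's mean monoploid TPM in each autotetraploid (T), diploid (D) and monoploid (M) library, for the 200 genes (circles), their 205 expressed neighbours (squares) and all expressed genes of the 7 chromosomes (triangles). The 200 genes lie at 1.43 to 1.64 in the autotetraploid and 1.46 to 1.63 in the diploid libraries, while neighbours lie at 0.17 to 0.26 and 0.27 to 0.37.

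Medians differed between orientations of the neighbour, a difference that was not tested. Divergent neighbours (49) had median log2 ratios to the monoploid of 0.35 in the autotetraploid and 0.43 in the diploid, against 0.20 and 0.30 over all genes with a neighbour in that arrangement. Neighbours on the same strand (97) had 0.26 and 0.38, against 0.19 and 0.29, and convergent neighbours (59) had 0.09 and 0.17, against 0.19 and 0.29. A 2-fold higher diploid mean was found in 2 divergent neighbours (4.08%, against 6.2%), 10 on the same strand (10.3%, against 6.52%) and 3 convergent ones (5.08%, against 6.36%). The 14 divergent neighbours within 1000 bp had medians of 0.33 and 0.58, against 0.26 and 0.37 for all genes in that arrangement. Of these 14, 0 reached 2-fold in the diploid, where the share over all such genes was 5.70%, so a count of 0 among 14 is not a difference from it.

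Among these close divergent pairs the largest ratios belonged to BRA05G0045584, 569 bp from BRA05G0045585. The neighbour had 14.5, 15.3 and 13.5 TPM in autotetraploid, 14.2 and 13.5 TPM in diploid, and 7.83, 7.01 and 7.34 TPM in monoploid leaves. BRA10G0012344, 698 bp from BRA10G0012343, had 21.2, 22.4 and 17.3 TPM in autotetraploid, 22.6 and 20.9 TPM in diploid, and 13.9, 11.4 and 9.51 TPM in monoploid leaves. BRA06G0041819, 888 bp from BRA06G0041818, had log2 ratios to the monoploid of 0.60 in the autotetraploid and 0.79 in the diploid. In these 3 pairs the neighbour was higher than in the monoploid too, but by less than the gene it flanks, whose log2 ratios were 1.24 and 1.37 for BRA05G0045585, 2.12 and 1.98 for BRA10G0012343, and 1.5 and 1.58 for BRA06G0041818.

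Other close divergent neighbours did not follow their partner. BRA03G0027239, 951 bp from BRA03G0027240, had 13.0, 9.13 and 11.5 TPM in autotetraploid, 12.7 and 13.3 TPM in diploid, and 18.3, 17.2 and 17.8 TPM in monoploid leaves. Its partner had log2 ratios to the monoploid of 1.77 in the autotetraploid and 1.64 in the diploid, so this pair moved in opposite directions with no overlap between monoploid and other libraries on either side. BRA06G0040380, 922 bp from BRA06G0040381, had log2 ratios of 0.36 and -0.19, with 13.5 TPM in D1 but 4.84 TPM in D2. BRA01G0016053, 419 bp from BRA01G0016052, had ratios of -0.08 and 0.14.

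A gene of very low monoploid level lay next to one of the 10 highest-ranked genes. BRA03G0025464 (A03, 5956732 to 5956962, minus strand), 4903 bp from BRA03G0025463 and named after its values were seen, had 64.4, 109 and 80.6 TPM in autotetraploid, 103 and 74.3 TPM in diploid, and 0.811, 0.180 and 0.169 TPM in monoploid leaves. On the other side, 3915 bp away, BRA03G0025462 (5947128 to 5947691, plus strand) had 4.96, 3.81 and 3.75 TPM in autotetraploid, 2.63 and 3.89 TPM in diploid, and 0.424, 0.0508 and 0.403 TPM in monoploid leaves. Both fell outside the bounds because their monoploid libraries were below 1 TPM, and BRA03G0025462 also exceeded the bound on the autotetraploid to diploid ratio. All 3 gene models in this stretch were thus several-fold higher in every autotetraploid and diploid library than in any monoploid library. BRA03G0025463 was chosen for that order and the others were named after their values were seen, so the stretch is given only as a description.

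Overlap with another gene model was rare. BRA08G0011256 shares 2895 bp with BRA08G0011257 on the same strand, and BRA03G0030436 shares 719 bp with BRA03G0030437 on the opposite strand, which together are 1% of the 200 genes, against 0.284% of the 9522. The strandedness of the RNA-seq is not stated, so reads of these overlapping models cannot be told apart. None (0) of the 200 genes had a same-strand gene model of equal span within 5 gene models, but near-identical copies elsewhere were not searched for, as no sequence of this assembly was at hand.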

How the data were processed

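RNA-seq of 3 autotetraploid, 2 diploid and 3 monoploid libraries was used, and the ATAC-seq and ChIP-seq samples were not used here. The authors trimmed reads, aligned them and ran StringTie on each library. The submitters' processing notes name fastp 0.21.0, HISAT2 2.2.1 and StringTie 1.3.5, and the genome assembly is not given in the sources used here. The deposited TPM values are scaled for transcript length to one common library total. The deposited FPKM values are scaled for length and depth, and the deposited coverage is the unscaled average read depth per base of a gene model. Depth was computed as coverage over FPKM. As no counts are given, no counting interval was made, and precision rests on the replicates. Of the table of monoploid replicate 1, 3 further columns were not used. The table of diploid replicate 2 has another row order and number format than the other 7 but holds the same 46479 gene models.

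Members and lists were chosen with earlier results of these data known. Ratios of group means of TPM and ranks were computed in Python 3.11.15 with pandas 2.3.3, and drawn with matplotlib 3.10.9. For the fit over all genes, gene models with at least 1 TPM in at least 2 libraries were kept, and log2(TPM + 1) was fitted by ploidy level with limma 3.58.1 in R 4.3.3 (lmFit, then eBayes with a trend) with Benjamini-Hochberg adjustment. This script was tested on simulated data. Calls needed a log2 difference of at least 1 in either direction and an adjusted p no greater than 0.05.

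Named genes were the 10 of highest rank, the 5 highest and 3 lowest by mean level, the 3 on each side of the limit, all pairs with no gene model between them, those with extreme spread or autotetraploid to diploid ratio, the 3 highest on A02, A04 or A09, and the 3 largest and 3 smallest divergent neighbours within 1000 bp. Alternatives were a pseudocount of 0.1, no filter, a TPM minimum of 5, other bounds on the autotetraploid to diploid ratio (0.1 and 0.4), group means in place of extreme libraries, median-ratio rescaling, a replicate block, and each library left out. The left-out library reading under rescaling was added after the data had been seen.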

Additional observations from a re-analysis of the deposited data

How the results depend on the processing

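Of 108 alternative values, 100 kept their direction and stayed within the limits set for a change, and 8 moved. In the choice of genes, 107 of the 200 were kept with at least 5 TPM in all 8 libraries, 109 with the autotetraploid to diploid log2 ratio within 0.1, and 127 without D1 (127 to 171 over the 8 libraries left out). It kept 153 genes under rescaling, 150 when ranked by group means and 147 with the ratio within 0.4. The medians of the neighbours were 0.029 for the autotetraploid and 0.071 for the diploid after rescaling, against 0.24 and 0.34 (0.20 to 0.33 and 0.27 to 0.42 with a library left out). Genes called by limma between diploid and monoploid were 2625, but 1589 without D1 (1589 to 2887 over the libraries left out); between autotetraploid and monoploid they were 2966 (2747 to 3265), and between autotetraploid and diploid 7, but 65 without D1 and 16 without D2 (6 to 65). With 1 diploid library left, its spread was taken to be like that of the other groups. Of the 200 genes, 186 to 191 were called against the monoploid in the autotetraploid and 170 to 192 in the diploid with a library left out, and 0 between autotetraploid and diploid. Correlations of the deviations of same-numbered libraries were 0.217, 0.181 and 0.082 between autotetraploid and monoploid, where other-numbered pairs ran from -0.188 to -0.015. Same-numbered pairs with a diploid library ran from -0.224 to 0.031. Whether replicate numbers pair the libraries is thus not settled. With a replicate block 2981, 2358 and 7 genes were called in these contrasts (autotetraploid and diploid against monoploid, and autotetraploid against diploid), with 190, 180 and 0 of the 200 genes. Depth per gene is unknown, so genes near 1 TPM are the least certain.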
